A study of Bos taurus with 16 samples.

Results

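Subcutaneous white adipose tissue of pre-weaned dairy calves was compared between 4 calves supplemented with 5-hydroxytryptophan (5-HTP) and 4 calves given saline (CON), by RNA-Seq. The 8 adipose libraries were chosen by their labels, out of 16 libraries in all, the other 8 being gluteus medius muscle with the same groups. The calves were Holstein bulls, about 21 days old at the start, and all of them were fed 8 L of milk replacer per day, to which 90 mg per day of 5-HTP or the saline was added for 10 days. CON calves are numbered 1 to 4 and 5-HTP-supplemented calves 5 to 8, 1 library per calf. Tissue was taken near the tail head and pelvis on the morning after the last supplementation, as a piece of whole tissue, so that the values are those of all of its cell types together. In such bulk samples, fewer cells of a type and less RNA per cell cannot be told apart.

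5-HTP is the immediate precursor of serotonin, to which it is converted by aromatic amino acid decarboxylase, so that it bypasses the rate-limiting hydroxylation of tryptophan. Adipose tissue stores energy as triglyceride, secretes hormones and complement factors, and holds macrophages, lymphocytes, vessels and nerve endings beside the adipocytes. Serotonin outside the brain is known for its part in adipocyte differentiation and in lipid storage.

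The comparison was made on counts per locus, a locus being a merged transcript model. Some of the genes described below were also measured by qPCR in adipose tissue, and the forward primers designed for that, given here 5′ to 3′, show which transcripts those were. They are printed because these are 5 of the 8 loci with a gene symbol that passed the test.
IFI47: gcacaactccaacagaagca
CLSTN3: atacccccttcctcatcgac
CYP4F2: cacagccagtggtctctcct
ANKRD33B: ccttattgtcgcctgctacc
REEP6: ctcctctgctgtgcagtctc

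The libraries held between 15058963 and 18371835 counts on separate loci in CON calves (median 17068145) and between 15531405 and 22156739 in 5-HTP-supplemented calves (median 20176298), a difference within the spread between calves (exact two-sided permutation test, p = 0.171). Levels are given as CPM, the counts that a locus would have in a library of 1000000 counts. In these libraries 3 counts, taken as the least that can be shown, are worth 0.135 to 0.199 CPM of the plain library totals. The levels below are also normalized between libraries, which shifts that worth, to 0.221 CPM in CON calf 2. These figures cover counting error alone. The tissue labels were checked with muscle genes. XLOC_017327 is a merged locus without an Ensembl identifier that the study names TTN, after the giant spring protein of the sarcomere. It had between 0 and 11 counts in adipose libraries and between 285 and 1712 in muscle libraries, which need not be those of the whole gene. IGFN1, a protein of the muscle Z-disc region, had between 0 and 8 against between 21067 and 92667. CFD (adipsin), a complement factor secreted by adipocytes, had between 200 and 1210 counts in adipose libraries and between 23 and 177 in muscle libraries. The library of CON calf 2 stood apart from the other 7 in a multidimensional scaling of the 500 most variable loci, at -3.16 on the first dimension against 0.11 to 0.86. It held the highest or lowest value of the 8 libraries at 59.2% of the loci tested, where the other libraries did so at 13.7% to 30.1%. Calf 8 of the 5-HTP group stood apart on the second dimension, at -1.98. Calls that were lost without these calves are listed with the called loci.

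**Figure D1:**
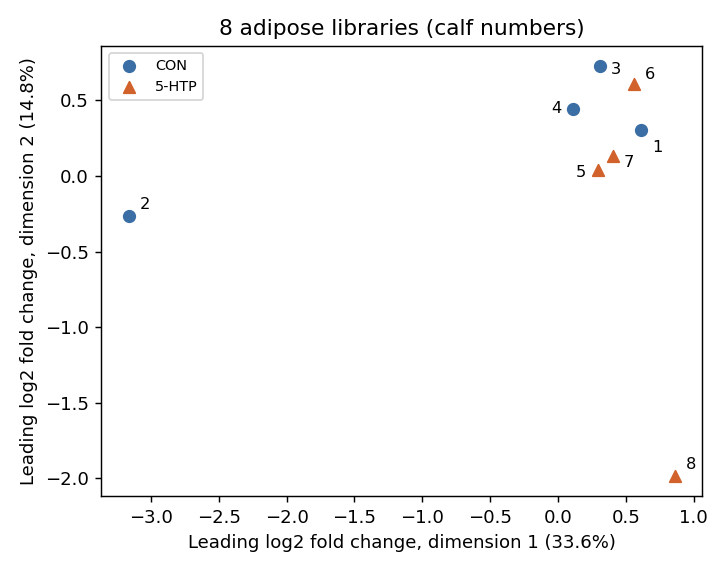
Multidimensional scaling of the 8 adipose libraries, with the first and second dimension of the leading log2 fold change on the axes and the calf number beside each point (circles CON, triangles 5-HTP). CON calf 2 lies at -3.16 on dimension 1 and 5-HTP calf 8 at -1.98 on dimension 2, and the other 6 libraries of both groups lie together.

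Of the 18872 loci tested, each with 10 or more counts in 4 or more adipose libraries, 21 (0.111%) passed a false discovery rate (FDR) of 0.20 by edgeR's likelihood ratio test and are called here. Of these, 11 (0.0583%) were upregulated and 10 (0.053%) downregulated in 5-HTP-supplemented calves. IFI47 rose the most, and SLC7A8, CYP4F2, ANKRD33B and REEP6 rose with it, while CLSTN3, COLQ and FUT7 fell, which makes 8 loci with a gene symbol. The log2 fold changes (logFC) ranged from -5.25 to 6.23, and every one of the 21 was above 1 in size, as were 4.69% of all loci tested. Groups did not overlap at 16 of the 21 loci, and at 2.43% of all loci tested. The quasi-likelihood test of edgeR, which allows for the uncertainty of each locus' dispersion, left 1 locus (0.0053%), IFI47, at an FDR at or under 0.20. The other 20 had an FDR of 0.969 in it, with unadjusted P values between 0.000125 and 0.00379. In DESeq2, 27 loci (0.143%) passed, 20 of them shared with the 21. With 1 calf left out at a time, every called locus that could be tested kept its direction, but 4 loci were called without CON calf 4, 14 without calf 7, 9 without calf 8 and between 25 and 41 without any other single calf (28 without CON calf 2). Of the 21, 19 were lost without calf 4, 15 without calf 8, 12 without calf 7 and 8 without CON calf 2, some of them because too few libraries with 10 counts were left. Without CON calf 2, the loci still tested but no longer called were CYP4F2, REEP6, ENSBTAG00000050527, XLOC_025101, XLOC_040763 and XLOC_040580 (edgeR, FDR from 0.245 to 0.426). Without calf 8 they were CLSTN3, FUT7, CYP4F2, REEP6, ENSBTAG00000047029, ENSBTAG00000050527, XLOC_024071, XLOC_005436, XLOC_025922, XLOC_028032, XLOC_040296, XLOC_040763 and XLOC_040580 (edgeR, FDR from 0.284 to 0.999).

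**Figure D2:**
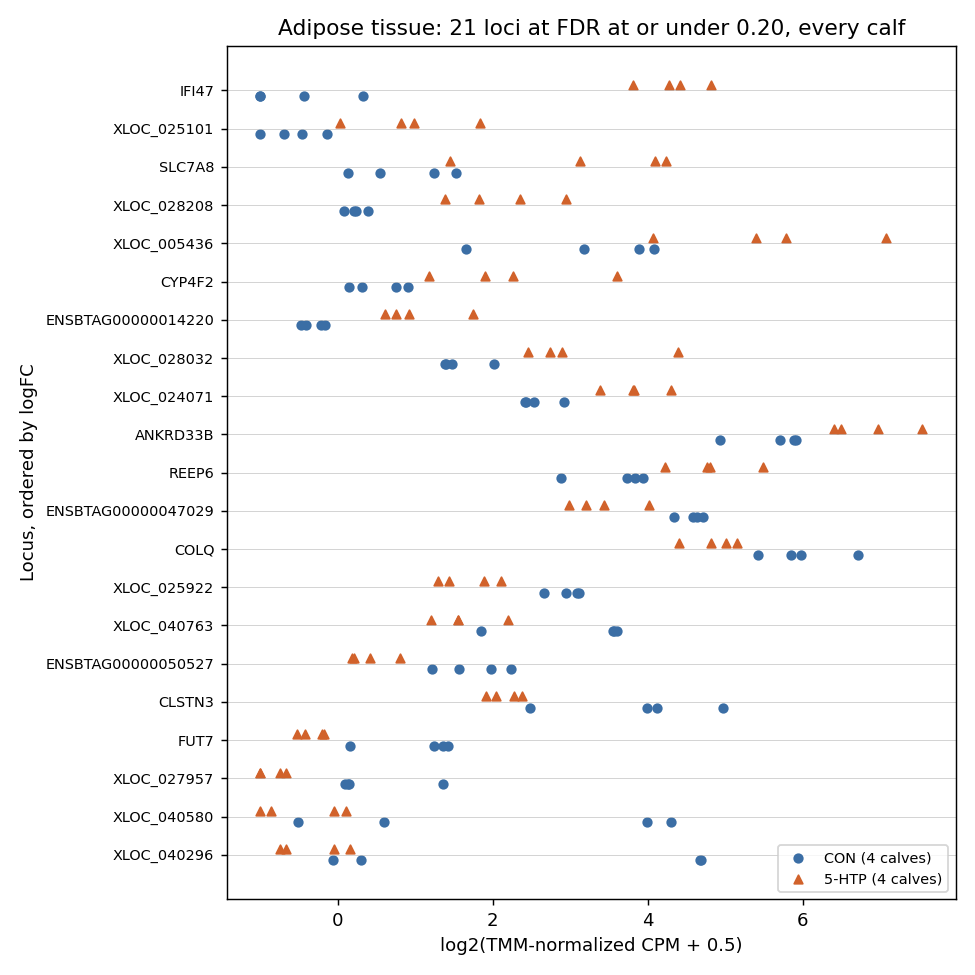
Expression of the 21 loci at an FDR at or under 0.20 in every calf, on the axis of log2(TMM-normalized CPM + 0.5), ordered by logFC from highest (top) to lowest. Circles are the 4 CON calves and triangles the 4 5-HTP-supplemented calves. The groups do not overlap at 16 loci, and XLOC_040296 and XLOC_040580 at the bottom are high in 2 of the 4 CON calves.

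IFI47, the 1 interferon response gene of 22 listed that had a symbol here, rose, and FUT7, of the list of lymphocyte genes, fell. Symbols were at hand for only 30 loci, all of them listed by the study as differentially expressed in adipose tissue or muscle of these calves. Other genes of the lists may be among the loci tested, but could not be named. Those with a symbol were selected by these same data and do not stand for their lists. IFI47, an interferon-inducible GTPase of cell-autonomous defence, had 0.760, 0, 0 and 0.240 CPM in CON calves and 27.7, 18.9, 13.5 and 20.9 CPM in 5-HTP-supplemented calves, a logFC of 6.23 with a standard error (SE) of 0.64 (edgeR, FDR = 6.79e-14). The CON values come from 15, 0, 0 and 4 counts, so the fold stands over a group near 0, and the logFC was 7.81 without CON calf 1 and between 5.80 and 6.38 without any other single calf. On log2(CPM + 0.5) the group means of IFI47 differed by 4.86, which is 9.08 times the pooled standard deviation (SD) between calves on that scale, and this ratio is called the standardized difference below. FUT7, the fucosyltransferase that completes selectin ligands on leukocytes, had 2.18, 2.07, 0.620 and 1.86 CPM in CON calves and 0.382, 0.373, 0.245 and 0.197 CPM in 5-HTP-supplemented calves. The groups did not overlap, but the 5-HTP values came from 8, 8, 5 and 3 counts, the last of which is at the floor. The logFC was -2.44 with an SE of 0.59 (edgeR, FDR = 0.0694), and FUT7 was no longer called without calf 7 or calf 8 (edgeR, FDR = 0.375 and 0.371). Leaving out any 1 CON calf left too few libraries with enough counts, so that FUT7 was then not tested. It stayed called in 2 of the 4 fits that could be run, those without calf 5 or calf 6.

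Few markers of leukocytes could be identified, and FUT7 was the only one of them that passed the test. For macrophages, 2 of 14 genes listed had a symbol here, C1QB, a subunit of complement C1q, and SIGLEC1, a sialic acid receptor of tissue macrophages. Their summed level lay between 75.4 and 109 CPM in CON calves and between 22.1 and 102 CPM in 5-HTP-supplemented calves, lowest in calf 8. C1QB alone had 82.1, 62.4, 46.6 and 16.4 CPM in calves 5 to 8 against 67.6 to 84.7 CPM in CON calves (logFC -0.58, SE 0.39, edgeR, FDR = 1). For lymphocytes, 2 of 16 had a symbol, FUT7 itself and CR2, the complement receptor of B cells, which had 16.1, 5.54, 22.04 and 12.8 CPM in CON calves and 12.4, 14.5, 3.09 and 2.23 CPM in 5-HTP-supplemented calves (logFC -0.81, SE 0.59, edgeR, FDR = 1). C1QB, SIGLEC1 and CR2 were thus each lower in calves 7 and 8 than in calves 5 and 6, and FUT7 was lowest in calves 7 and 8 too, at 5 and 3 counts. The CON calves had another order. FUT7 was lowest there in calf 3, at 0.620 CPM, where CR2 was highest. C1QB, SIGLEC1 and CR2 were lowest in CON calf 2 (67.6, 7.75 and 5.54 CPM), which had 2.07 CPM of FUT7. The part of leukocyte content in the FUT7 value was not tested.

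SLC7A8, CYP4F2 and a locus without a symbol that the study describes as CD36 molecule rose. SLC7A8 (LAT2), an exchanger of neutral amino acids at the plasma membrane, had 2.38, 0.960, 1.86 and 0.601 CPM in CON calves and 16.6, 2.24, 18.4 and 8.27 CPM in 5-HTP-supplemented calves. These are the values of XLOC_002658, a merged locus without an Ensembl identifier that the study names SLC7A8, and need not be those of the whole gene. Calf 6 lay within the CON range, so the groups overlapped. With an SE of 0.61 the logFC was 2.96 (edgeR, FDR = 0.0279), and the call was lost only when CON calf 4 was left out (edgeR, FDR = 0.323). SLC7A8 was the only one of 13 genes listed for tryptophan and kynurenine metabolism that had a symbol here. None of 21 genes listed for serotonin receptors, transport and metabolism had one, so they could not be looked up among the loci tested.

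CYP4F2, a cytochrome P450 that hydroxylates the omega end of fatty acids, leukotriene B4 and vitamins E and K, had 0.608, 0.738, 1.18 and 1.38 CPM in CON calves and 1.77, 4.29, 3.24 and 11.6 CPM in 5-HTP-supplemented calves. Calf 8 was the highest, and without it the logFC moved from 2.41 (SE 0.59, edgeR, FDR = 0.123) to 1.65 and was no longer called (edgeR, FDR = 0.691). It was not called either without calves 1, 2 or 4. CYP4F genes form a family of close copies, so the uniquely mapped reads counted for CYP4F2 are uncertain to that extent. ENSBTAG00000014220, which the study lists without a symbol under the description CD36 molecule, had 0.253, 0.221, 0.395 and 0.361 CPM in CON calves. In 5-HTP-supplemented calves it had 1.39, 1.03, 2.85 and 1.18 CPM. These are low levels, with 3 to 7 counts in each CON library and 18 to 58 in each 5-HTP library. The mean of 0.959 CPM is at percentile 13.7 of the loci tested. CD36 is a fatty acid transporter of adipocytes, and these values need not be those of the CD36 gene itself. The logFC of ENSBTAG00000014220 was 2.36 (SE 0.58, edgeR, FDR = 0.0928), and its muscle libraries had 0 or 1 count each. It was not called without CON calf 1 or CON calf 4 (edgeR, FDR = 0.232 and 0.368). Leaving out any 1 of the 5-HTP-supplemented calves left too few libraries with enough counts, so that it was then not tested. It stayed called in 2 of the 4 fits that could be run, those without CON calf 2 or CON calf 3.

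REEP6 and ANKRD33B rose, and CLSTN3 and COLQ, of the list of nerve and synapse genes, fell. REEP6, which shapes membranes of the endoplasmic reticulum, had 14.9, 6.86, 12.8 and 13.8 CPM in CON calves and 18.2, 27.5, 26.6 and 44.3 CPM in 5-HTP-supplemented calves (logFC 1.27, SE 0.34, edgeR, FDR = 0.181). Its lowest value was in CON calf 2 and its highest in calf 8, and it was called neither without the first (logFC 1.07, edgeR, FDR = 0.274) nor without the second (logFC 0.99, edgeR, FDR = 0.999). ANKRD33B, a protein with ankyrin repeats, was the most abundant of the 21 loci, at 59.9, 59.0, 51.9 and 29.99 CPM in CON calves and 126, 84.2, 187 and 89.4 CPM in 5-HTP-supplemented calves. The logFC of ANKRD33B was also 1.27, with an SE of 0.31 (edgeR, FDR = 0.114), and calf 7 was the highest. Without that calf it was 0.99 (edgeR, FDR = 0.655), and ANKRD33B was not called either without calves 3, 4 or 5.

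CLSTN3, a calsyntenin that organizes synapses and of which adipocytes make a form linked to sympathetic innervation, had 15.5, 31.0, 5.07 and 16.9 CPM in CON calves and 4.35, 3.64, 4.71 and 3.28 CPM in 5-HTP-supplemented calves. All 4 supplemented calves lay in a narrow range just under the lowest CON calf, calf 3, while the CON calves were spread over 6.11-fold. The logFC was -2.10 (SE 0.46, edgeR, FDR = 0.0360), and it moved to -1.64 without CON calf 2 (edgeR, FDR = 0.116). CLSTN3 was no longer called without CON calf 4 or without calf 8 (edgeR, FDR = 0.218 and 0.284). COLQ, the collagen tail that anchors acetylcholinesterase at synapses, had 42.6, 105, 57.0 and 62.4 CPM in CON calves and 27.7, 31.8, 20.7 and 35.1 CPM in 5-HTP-supplemented calves. Its highest value was again in CON calf 2, and its logFC of -1.21 (SE 0.30, edgeR, FDR = 0.114) was -0.91 without that calf (edgeR, FDR = 0.148). COLQ was no longer called without calves 4, 5 or 7 (edgeR, FDR = 0.368, 0.328 and 0.655). The counts of COLQ are listed under 2 Ensembl identifiers of 1 locus and were used once. CLSTN3 and COLQ were the only members of the list of nerve and synapse genes with a symbol, which they had because the study called both in adipose tissue. Together they had 58.1 to 136 CPM in CON calves and 25.4 to 38.4 CPM in 5-HTP-supplemented calves. That sum follows from the 2 calls and does not test the list.

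The remaining 12 called loci carry neither a symbol nor a description. Of the upregulated ones, XLOC_028208 was the only locus beside IFI47 that stayed called whichever calf was left out. It had 0.558, 0.812, 0.676 and 0.661 CPM in CON calves and 2.10, 3.03, 4.61 and 7.22 CPM in 5-HTP-supplemented calves, a logFC of 2.64 (SE 0.50, edgeR, FDR = 0.00281), and it had no count in any of the 8 muscle libraries. XLOC_024071 rose from 7.05, 4.87, 5.30 and 4.87 CPM to 9.93, 13.6, 13.5 and 19.2 CPM (logFC 1.35, SE 0.31, edgeR, FDR = 0.0514), a standardized difference of 4.01, and it was not called without CON calf 4 or without calf 8 (edgeR, FDR = 0.452 and 0.397). XLOC_028032 rose from 2.28, 3.54, 2.14 and 2.10 CPM to 6.93, 4.99, 6.18 and 20.5 CPM, with a logFC of 1.94 (SE 0.49, edgeR, FDR = 0.123) that was 1.26 without calf 8. Calf 8 was also the highest at XLOC_005436, where the CON calves had 16.5, 2.66, 14.3 and 8.53 CPM and the 5-HTP-supplemented calves 41.7, 16.3, 54.6 and 134 CPM, so that the groups overlapped by calf 6. Its logFC of 2.55 (SE 0.60, edgeR, FDR = 0.114) was 1.82 without calf 8 (edgeR, FDR = 0.691). The weakest coverage of the upregulated loci was at XLOC_025101, with 8, 0, 4 and 2 counts in CON calves and 11, 27, 30 and 47 in 5-HTP-supplemented calves (logFC 2.96, SE 0.78, edgeR, FDR = 0.142), and with a calf left out it stayed called only where that was CON calf 1. It too could not be tested with any 1 of the 5-HTP-supplemented calves left out.

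The 2 largest decreases were at loci that were high in only 2 of the 4 CON calves. XLOC_040296 had 25.3 and 25.0 CPM in CON calves 2 and 4, but 0.456 and 0.733 CPM in CON calves 1 and 3, which lay among the 0.621, 0.467, 0.0981 and 0.131 CPM of the 5-HTP-supplemented calves. XLOC_040580 had the same form, with 19.3 and 15.4 CPM in CON calves 2 and 4, 0.203 and 1.01 CPM in CON calves 1 and 3, and 0 to 0.573 CPM in 5-HTP-supplemented calves. The groups overlapped at both loci, and the logFC of -5.25 (SE 1.05, edgeR, FDR = 0.0514) and -4.99 (SE 1.16, edgeR, FDR = 0.164) were thus set by 2 calves of 4. The standardized differences, -1.44 at XLOC_040296 and -1.45 at XLOC_040580, were the smallest in size of the 21. XLOC_040580 was not called without CON calf 2 (edgeR, FDR = 0.426), and both were lost without CON calf 4 (edgeR, FDR = 0.336 at XLOC_040296 and 0.452 at XLOC_040580). XLOC_041998, just outside the threshold, was also highest in CON calves 4 and 2, at 10.9 and 5.68 CPM. XLOC_027957 had 12, 28, 10 and 10 counts in CON calves and 0, 0, 2 and 2 in 5-HTP-supplemented calves (logFC -3.996, SE 0.98, edgeR, FDR = 0.0279). Leaving out any 1 CON calf took it below the minimum of 4 libraries, so that it was then not tested.

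Smaller decreases with tight groups were seen at XLOC_025922 and ENSBTAG00000047029. XLOC_025922 had 5.83, 7.23, 8.17 and 7.99 CPM in CON calves and 3.82, 1.96, 2.21 and 3.22 CPM in 5-HTP-supplemented calves (logFC -1.38, SE 0.35, edgeR, FDR = 0.123), a standardized difference of -4.13. ENSBTAG00000047029 had 24.5, 19.9, 23.5 and 25.8 CPM and then 8.74, 7.42, 15.6 and 10.4 CPM (logFC -1.15, SE 0.29, edgeR, FDR = 0.116). With 1 calf left out, XLOC_025922 stayed called in 3 of 8 fits and ENSBTAG00000047029 in 2 of 8, with logFC between -1.58 and -1.24 and between -1.41 and -1.01. ENSBTAG00000050527 fell from 1.82, 4.21, 3.44 and 2.46 CPM to 1.24, 0.840, 0.638 and 0.657 CPM (logFC -1.80, SE 0.46, edgeR, FDR = 0.130), and stayed called in 2 of 8 such fits. XLOC_040763 had 11.4, 11.7 and 11.2 CPM in CON calves 2 to 4, but 3.09 CPM in CON calf 1, within the 1.82 to 4.11 CPM of the 5-HTP-supplemented calves (logFC -1.79, SE 0.46, edgeR, FDR = 0.153), and it too stayed called in 2 of 8.

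Loci just inside and just outside the threshold had like values. The last called locus was REEP6 at an FDR of 0.181, and the first one outside was ENSBTAG00000019822 at 0.256, with 14.9, 20.004, 19.6 and 15.3 CPM in CON calves and 32.3, 56.4, 22.3 and 37.0 CPM in 5-HTP-supplemented calves (logFC 1.08, SE 0.30, edgeR). Next came XLOC_041998, ENSBTAG00000000505, ENSBTAG00000006582, XLOC_018920, ENSBTAG00000031575, XLOC_040820 and ENSBTAG00000007439, each at 0.279. Of these, ENSBTAG00000000505 had the tightest supplemented group, with 51.2, 52.1, 56.3 and 56.7 CPM against 30.5, 23.9, 35.6 and 36.9 CPM (logFC 0.77, SE 0.22, edgeR).

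An unadjusted P value at or under 0.01 was reached by 213 loci (1.13%), 114 higher (0.604%) and 99 lower (0.525%) in 5-HTP-supplemented calves. By quasi-likelihood the number was 98 (0.519%). A calibrated test passes about 1% of loci at this threshold where nothing differs, so these loci are described as a set and not as changed. The most abundant of them that were higher were ENSBTAG00000039662 (209 ± 59.1 to 359 ± 69.2 CPM, SD, n = 4), ENSBTAG00000047502 (164 ± 39.9 to 349 ± 169 CPM) and XLOC_024906 (187 ± 35.0 to 321 ± 69.1 CPM). The most abundant lower ones were ENSBTAG00000050986 (1034 ± 282 to 624 ± 46.8 CPM), ENSBTAG00000013358 (586 ± 171 to 331 ± 71.0 CPM) and ENSBTAG00000004499 (200 ± 78.1 to 105 ± 10.2 CPM). Their logFC lay between -0.92 and 1.09, and none had an FDR at or under 0.20. CFD, the 1 adipocyte gene of 16 listed that had a symbol here, had 39.9, 89.3, 37.2 and 45.3 CPM in CON calves and 39.4, 25.98, 21.8 and 13.1 CPM in 5-HTP-supplemented calves, a logFC of -1.08 (SE 0.37, edgeR, FDR = 0.734). Calf 5 lay within the CON range, and without CON calf 2 the logFC of CFD was -0.70.

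The immediate early genes EGR1 and FOS, transcription factors induced within minutes by growth factors and stress, varied more between calves than between groups. EGR1 had 163, 42.6, 166 and 131 CPM in CON calves and 47.6, 450, 190 and 32.0 CPM in 5-HTP-supplemented calves, and FOS was lowest in calves 8 and 2 and highest in calf 6 as well. Their logFC were 0.52 (SE 0.69) and 0.64 (SE 0.74), neither of them called (edgeR, FDR = 1 for both), and both were below 0 without calf 6.

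The called loci were of middle to low abundance. CPM here are counts per locus without correction for length, which the deposited files do not give, so that abundance means the number of counts and not of transcripts. The median of the mean CPM over the 8 libraries was 6.08 for the 21 called loci and 12.1 for all loci tested, and the called ones ranged from 0.509 CPM (XLOC_027957) to 85.8 CPM (ANKRD33B). None of the 21 reached 100 CPM, where 10.5% of all tested loci lay. With the loci cut into 5 classes of equal size from lowest to highest abundance, 4, 6, 8, 2 and 1 loci were called. The share at a P value at or under 0.01 was 1.62%, 1.54%, 0.980%, 0.927% and 0.583% in the same order.

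The estimated logFC and their SEs were both smaller in size at high than at low abundance. How far the first follows from the second was not tested. The median size of the logFC over all tested loci was 0.42 in the lowest class and 0.17 in the highest, while the median SE went from 0.66 to 0.25. A locus in the lowest class needed a logFC of at least 2.36 (ENSBTAG00000014220) to be called here, and the smallest called in the next to highest class was 1.21, that of COLQ. The 5 loci with the most counts, XLOC_018315, XLOC_001236, ENSBTAG00000051730, ENSBTAG00000037526 and ENSBTAG00000014534, had logFC between -0.17 and 0.35 with SEs between 0.24 and 0.32. XLOC_018315 alone had 17869 CPM in CON calf 2 and between 6804 and 15057 CPM in the others.

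**Figure D3:**
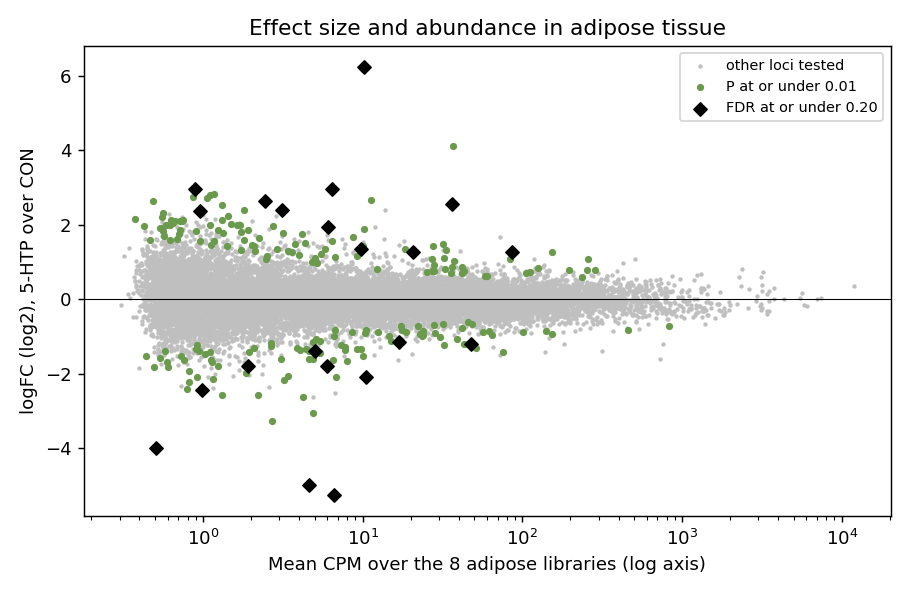
logFC (log2, 5-HTP over CON) against mean CPM over the 8 adipose libraries (log axis) for the 18872 loci tested, with loci at a P value at or under 0.01 as green points and the 21 called loci as black diamonds. The called loci lie between 0.509 and 85.8 CPM, and the cloud narrows with abundance.

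Loci with only the number of a merged locus made up 11 of the 21 called loci, SLC7A8 among them, or 52.4%, and 25.3% of all loci tested. At a P value at or under 0.01 they made up 54.4% of the higher loci and 27.3% of the lower loci. Such loci were also less abundant, and made up 65.7% of the lowest abundance class and 1.85% of the highest.

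The spread within groups differed over the whole tissue. On log2(CPM + 0.5), the median SD between calves was 0.42 in the CON group and 0.32 in the 5-HTP group, and the CON group had the larger SD at 64.5% of loci. That order rested on 1 library, and without CON calf 2 the CON median was 0.27 and the share 41.9%. At the called loci the group with the higher level had, in most cases, the larger spread. Of the 11 upregulated loci, 10 had the larger SD in 5-HTP-supplemented calves, the exception being IFI47 with an SD of 0.63 in CON calves and 0.42 in 5-HTP-supplemented calves. Of the 10 downregulated loci, 8 had the larger SD in CON calves, and XLOC_025922 and ENSBTAG00000047029 were the exceptions.

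The same held for loci at a P value at or under 0.01, where the CON group had the larger SD at 34.2% of the higher loci and 79.8% of the lower loci. Among those with a mean of at least 5 CPM, where the 0.5 added to each CPM weighs less, the shares were 40.8% of 49 and 77.8% of 54. These shares come from the comparison that chose the loci and are given as a description.

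**Figure D4:**
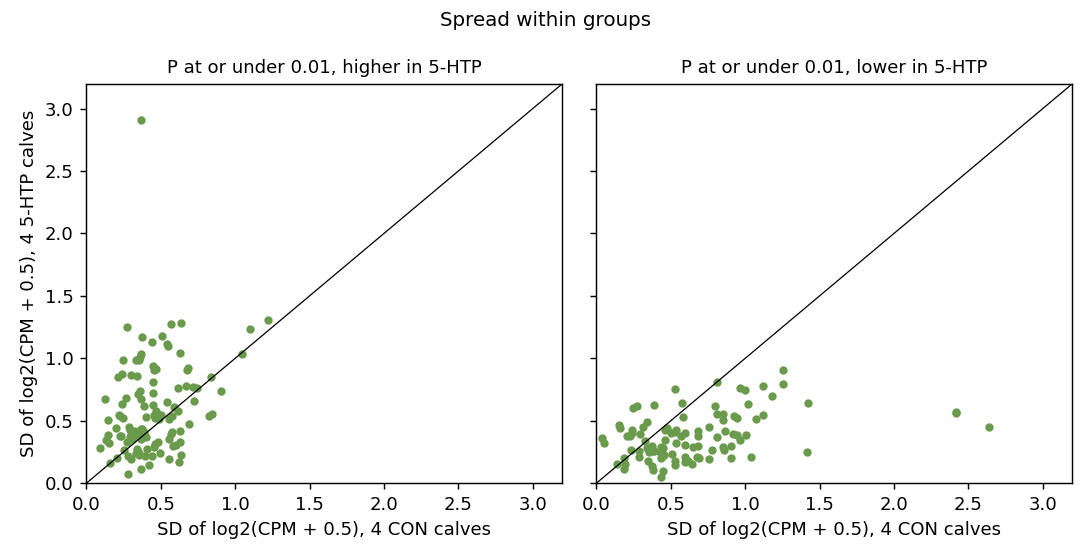
SD between calves on log2(CPM + 0.5) in the CON group (horizontal axis) and in the 5-HTP group (vertical axis) for the 114 higher (left) and 99 lower loci (right) at a P value at or under 0.01, with the line of equal SD. CON has the larger SD at 34.2% of the points on the left and 79.8% on the right.

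The tissue bias of the called loci and of those at a P value at or under 0.01 was set beside that of all loci tested. Tissue bias was taken as the log2 ratio of the mean CPM in adipose tissue over muscle, with a mean under 3 counts per library raised to that floor, so that it is a lower bound for loci without muscle counts. Where a mean is raised, the sign of the ratio can come from the floor. In CON calves, 5111 of the 18872 loci (27.1%) were higher in adipose tissue and 3867 (20.5%) in muscle, with an FDR of 0.05 as the limit (edgeR likelihood ratio test of the 4 adipose against the 4 muscle CON libraries). Of the 21 called loci, 14 were higher in adipose tissue and 2, ANKRD33B and XLOC_025101, higher in muscle. The same test in 5-HTP-supplemented calves had 9 of the 21 (42.9%) higher in adipose tissue, and 34.8% of all loci. This comparison shares the adipose CON libraries with the comparison of treatments, and a locus that is low in them counts as less adipose-biased for that reason alone. The bias was therefore also taken as the mean of the ratios in CON and in 5-HTP-supplemented calves. Its median was 1.17 for the called loci, 0.90 for loci at a P value at or under 0.01 and 0.26 for all loci tested. Loci over 4-fold higher in adipose tissue by that mean held 7 of the 21 called loci and made up 9.62% of all loci tested. In this class, 2.48% of the loci had a P value at or under 0.01, against 0.982% of those within 4-fold and 1.03% of those over 4-fold higher in muscle. Loci of the adipose class were also less abundant (median 6.73 against 13.1 CPM within 4-fold) and more variable between calves (median pooled SD 0.58 against 0.39), and the part of either in these shares was not tested.

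**Figure D5:**
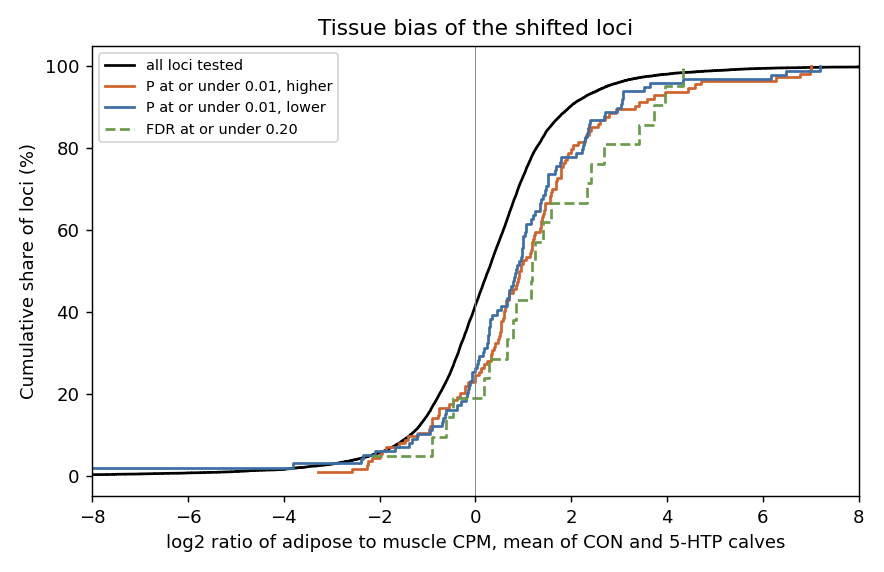
Cumulative share of loci (%) against tissue bias, the log2 ratio of adipose to muscle CPM as the mean of CON and 5-HTP-supplemented calves, for all loci tested (black), loci at a P value at or under 0.01 that were higher (orange) or lower (blue), and the 21 called loci (green, dashed). The lines of these 3 sets lie to the right of that of all loci, with a median of 1.17 for the called ones against 0.26.

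The named genes differed in how they were biased. By the mean of the ratios in both groups CLSTN3 was the most adipose-biased of the 21, at 5.05 in CON calves and 3.60 in 5-HTP-supplemented calves on the log2 scale, and REEP6 (3.03 and 4.41) and COLQ (2.91 and 1.75) were higher in adipose tissue in both groups. ANKRD33B was the most muscle-biased by the same mean, at -2.80 and -1.53. SLC7A8 was at -0.15 in CON calves and at 2.50 in 5-HTP-supplemented calves, and FUT7 at 1.81 and -0.14. XLOC_040296 was at 5.38 in CON calves, a ratio that rests on calves 2 and 4, and at 0.00 in 5-HTP-supplemented calves. IFI47, near absent from both tissues of CON calves, was at -0.27 and 0.65. It had 4 counts in all in muscle of CON calves, so that the floor set the muscle side of the -0.27. The log2 ratio fitted by edgeR there was 1.22 (SE 1.57, FDR = 0.518). The floor also set the muscle side for FUT7 and XLOC_040296 in 5-HTP-supplemented calves, where the fitted ratios were 0.21 and 0.68.

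In muscle, 10 of the 21 called loci had enough counts to be tested, or 47.6%, where 76.6% of all loci tested in adipose tissue did. The muscle comparison shares no library with the adipose one, but the study took both tissues from the same 8 calves. IFI47 was the only one of the 10 with a P value at or under 0.05 in muscle, where 4.67% of the loci tested in both tissues had one, with 0, 0, 0.178 and 0 CPM in muscle of CON calves and 9.20, 5.99, 1.74 and 5.54 CPM in muscle of 5-HTP-supplemented calves (logFC 6.84). SLC7A8 had a logFC of 0.31 in muscle against 2.96 in adipose tissue, ANKRD33B 0.01 against 1.27, COLQ -0.02 against -1.21, REEP6 -0.06 against 1.27 and CYP4F2 1.24 against 2.41. The sign was the same in both tissues at 8 of the 10, and at 55.1% of all loci tested in both.

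Whether the effect of 5-HTP differed between the tissues was asked of all 16 libraries in 1 model, by its interaction of tissue and treatment. Among the loci tested in adipose tissue, 11 (0.0583%) had an FDR at or under 0.20 for that interaction (edgeR likelihood ratio test). None of the 21 called loci was among them, ANKRD33B being the nearest at 0.368, in the model without a term for the library number. With that term, XLOC_025922 had an FDR of 0.153 (edgeR). The interaction cannot show a difference where muscle has no counts. XLOC_028208 and XLOC_027957, with 0 counts in muscle, had a P value of 0.9996 for it (edgeR likelihood ratio test). Of the 213 loci at a P value at or under 0.01 in adipose tissue, 119 were tested in muscle, and 95 of these (79.8%) had the same sign there. Of the 119, the P value in muscle was at or under 0.05 for 18 and at or under 0.01 for 6, where 4.67% and 1.45% of all loci tested in both tissues did.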

How the data were processed

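Poly-A RNA of the 8 adipose and 8 muscle samples was sequenced on an Illumina instrument. The authors trimmed the reads (Trim Galore 0.4.4), mapped with HISAT2 (genome build ARS-UCD1.2), merged transcript models with Cufflinks 2.2.1 and counted uniquely mapped reads per gene with HTSeq. The deposited values are these raw counts per identifier, not normalized and not pooled. Whether the strand was used is not given in the sources used here, so overlapping and antisense genes cannot be told apart.

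The 44265 rows were reduced to 42862 loci, 1 row each, because 1166 loci were listed under more than 1 identifier with the same counts. Groups came from the treatment and tissue labels. Loci that had 10 or more counts in 4 or more libraries of the tissue were tested in R 4.3.3 with edgeR 4.0.16 (TMM normalization, default dispersions, treatment alone in the model, likelihood ratio test, Benjamini-Hochberg adjustment), with the quasi-likelihood test beside it and DESeq2 1.42.0 as an alternative. Normalization, dispersions and test are those of the study's methods. The filter and the merging into loci are not. The filter as the study words it, which removes a locus that is under 10 counts in 4 or more libraries, was run as an alternative (17823 loci tested, 15 called). Adjusted P values are over all loci tested. Standard errors come from the information of the fitted model. Levels are TMM-normalized CPM, summaries were made in Python 3.11.15, and the library totals were compared by an exact permutation test over the 70 choices of 4 of 8, which cannot give a p below 0.0286. The steps were tested on simulated data.

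The loci named are those at an FDR at or under 0.20, the 5 next in each direction by P value, the 3 most abundant in each direction at a P value at or under 0.01, the 5 most abundant in the tissue and listed genes with a symbol. The comparison, the loci and the gene lists were chosen with earlier results of these data known. Symbols came from the identifiers that the study's supplement pairs with a name (30 loci). The reference gene table, of another assembly (ARS-UCD2.0), pairs 0 genes with an Ensembl identifier, so no coordinates are given, and the lists of fatty acid synthesis, triglyceride synthesis and lipolysis, PPAR signalling, proliferation, endothelial, fibroblast, blood and skin genes had 0 members with a symbol. The alternatives were other tests, normalization, filters, rows, thresholds and calves left out. Leaving out CON calf 2 and calf 8 together was chosen after seeing the data.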

Additional observations from a re-analysis of the deposited data

Results flagged for a closer look

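Among 94 groups of 4 calves at the named loci, 8 had 1 calf that lay far from the other 3, with a gap over Dixon's 95% critical value. About 1 in 20 groups of independent, normally distributed values pass it. The values here are CPM at loci chosen from these same libraries, so the 8 cannot be compared with that rate. CON calf 2 was the calf that lay apart in 4 of the 8. At XLOC_027957 it had 2.07 CPM where the next CON calf had 0.608, at XLOC_028032 it had 3.54 against 2.28 CPM, at CFD 89.3 against 45.3 CPM and at XLOC_018315, the locus with the most counts, 17869 against 8632 CPM. At the called locus XLOC_028032, 5-HTP calf 8 stood out too, with 20.5 CPM against 6.93 in the next calf. CON calf 1 was low at XLOC_040763, with 3.09 CPM where the other CON calves had at least 11.2. CON calf 3 had 123 CPM of ENSBTAG00000007439 against 80.2 in the next, and 5-HTP calf 6 had 694 CPM of ENSBTAG00000050986 against 605.

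At 2 of the named loci the effect of 5-HTP differed between the tissues by the tissue by treatment term. ENSBTAG00000007439 was higher in adipose tissue of 5-HTP-supplemented calves (CON calves at 76.4, 80.2, 123 and 76.6 CPM, 5-HTP calves at 165, 195, 152 and 131 CPM) and lower in muscle (7.40, 7.05, 4.68 and 6.71 CPM, then 4.602, 4.81, 3.37 and 3.75 CPM). The logFC in adipose tissue was 1.504 above that in muscle (SE 0.33, edgeR, FDR = 0.0115). For EGR1, whose logFC was 0.52 in adipose tissue and -3.64 in muscle, the difference was 4.17 (SE 1.03, edgeR, FDR = 0.133). With a term for the library number in the model, the FDR was 0.0543 for ENSBTAG00000007439 and 0.886 for EGR1 (edgeR). Neither locus had an FDR at or under 0.20 in adipose tissue, and the quasi-likelihood test of edgeR gave 0 loci at an FDR at or under 0.20 for this term, with 775 at an unadjusted P value at or under 0.05.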

How the results depend on the processing

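The number of called loci depended most on the test and on single calves. At an FDR at or under 0.20, 21 loci became 1 with the quasi-likelihood test of edgeR, 9 with Ensembl loci alone and 5 at an FDR at or under 0.05, and between 4 and 41 with 1 calf left out. At a P value at or under 0.01, 213 became 98 with the quasi-likelihood test, 473 without the filter, 135 with Ensembl loci alone and between 121 and 290 with 1 calf left out. With Ensembl loci alone the lower loci at that threshold went from 46.5% to 58.5%, and without calf 8 to 57.0%. Other alternatives gave 15 to 31 and 155 to 230. Without CON calf 2 and calf 8 together, 16 loci were called, 7 of them among the 21. The called loci that could be tested had the same direction under every alternative run. The tissue by treatment term gave 19 loci over all 16 libraries, 0 with the quasi-likelihood test and between 11 and 43 with 1 number left out. The adipose-biased loci ranged from 3951 to 6564. The cause of these changes was not tested.

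Named loci that changed sign were called in neither direction. With 1 calf left out, the logFC of XLOC_001236 (0.03) ranged from -0.097 to 0.27, that of ENSBTAG00000051730 (0.02) from -0.185 to 0.21, that of FOS (0.64) from -0.25 to 1.01, that of EGR1 (0.52) from -0.48 to 0.85 and that of SIGLEC1 (-0.25) from -0.49 to 0.0021. FOS and EGR1 fell below 0 without calf 6, and SIGLEC1 rose above 0 without calf 8. Without CON calf 2 and calf 8 together, ENSBTAG00000051730 was at -0.149.

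The labels number the libraries 1 to 8 in both tissues. Deviations from the group means of libraries with the same number correlated between -0.215 and 0.274 over 14460 loci, below 0.1 for numbers 1 and 2. Of the 8, 6 correlated best with their own number among the muscle libraries of the same group, so most numbers behaved as a pairing would. The labels do not say that the number is the calf, though, and the main model has no term for it. A model with that term, the replicate block, was run beside it. With the replicate block, the tissue by treatment term gave 19 loci, EGR1 no longer among them (edgeR, FDR = 0.886) and the called locus XLOC_025922 now among them (edgeR, FDR = 0.153, against 0.483 without the block), and the adipose-biased loci in CON calves numbered 4909.

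Counts of 10 or fewer in at least 1 library limit the values of IFI47, SLC7A8, CYP4F2, FUT7, ENSBTAG00000014220, ENSBTAG00000050527, XLOC_027957, XLOC_025101, XLOC_040296 and XLOC_040580. With 4 calves a group, a P value that misses the threshold does not show that a locus did not differ.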
